A study of Mus musculus with 214 samples.

Results

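Lcn2 and the 9 acute phase genes Saa1, Saa2, Orm1, Orm2, Hp, Hpx, Apcs, Itih4 and Socs3 were followed in mouse liver after exposure to the alkylating carcinogen N-nitrosodimethylamine (NDMA). The 10 genes were taken by their symbols, and all 10 were present in the gene tables of both genotypes, which together listed 19900 genes. The acute phase response is a change in the proteins that hepatocytes secrete during infection or tissue injury. Interleukin-6 acts through STAT3, and interleukin-1 acts through NF-kB and C/EBP factors, to switch on its genes in hepatocytes. Most members encode secreted plasma proteins, while Socs3 encodes an intracellular inhibitor of STAT3 signalling that the same pathway induces.

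Liver RNA was collected from C57BL6 mice of 2 genotypes. All carried both copies of the RaDR recombination reporter (RaDR+/+) and of the GPT mutation reporter (GPT+/+), and only the Mgmt-/- mice lacked the methyltransferase that repairs O-methylated guanine. Mice of both sexes were injected intraperitoneally with 3.5 mg/kg NDMA on postnatal day 8 and 7 mg/kg on postnatal day 15, or with saline on the same days, and livers were taken 1 day (Day1), 2 days (Day2), 5 days (Day5), 10 weeks (Week10) or 10 months (Month10) after the second injection. Whole litters were assigned to 1 treatment at birth, so litters lay within treatments, and the litter of each mouse was not used here. Expression was measured by 3' digital gene expression, in which reads come from the ends of transcripts, and each value is a read count divided by 1 size factor for its library.

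The WT groups held 21 saline and 26 NDMA mice at Day1, 8 and 8 at Day2, 7 and 8 at Day5, 8 and 8 at Week10, and 10 and 13 at Month10. The Mgmt-/- groups held 12 and 12 mice at Day1, 7 and 8 at Day2, 6 and 8 at Day5, 8 and 8 at Week10, and 12 and 13 at Month10. Libraries held from 150038 to 4791649 reads in WT mice and from 713584 to 7740710 reads in Mgmt-/- mice. Because normalisation was done apart for WT and Mgmt-/- mice, their levels are not compared directly. The Mgmt transcript itself had a median of 45.8 (13.0 to 130) in WT libraries and of 1.09 (0 to 9.67) in Mgmt-/- libraries. Hepatocyte markers such as Alb and Ttr were high in every group. A further 2 libraries labelled Mgmt-/- saline Day5 (replicates D389011 and D389017) held more than 1000 normalised reads of Kap, a kidney gene, and were left out of all groups. In WT NDMA mice at Day1, 2 libraries (replicates D209072 and D209077) went against their labelled sex in the sex-linked genes, and 4 WT NDMA libraries (replicates D215006, D215014, D215022 and D215030) held under 300000 reads. Both sets were kept, and values without them are given where a call changed.

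Members lie on 7 chromosomes of the GRCm38 build. Saa1 (chr7:46740497-46742980) and Saa2 (chr7:46751790-46754313) are neighbours in opposite orientation, and Orm1 (chr4:63344560-63348163) and Orm2 (chr4:63362449-63365878) are neighbours in the same orientation. The reads came from transcript ends, and the last 300 bases of the pairs were 92.4% identical for Saa1 and Saa2 and 97.7% identical for Orm1 and Orm2, so the split of reads within each pair is uncertain. Lcn2 lies at chr2:32384633-32388252 and Hpx at chr7:105591613-105600137. Windows of 250 bases before the transcription start were found in RefSeq (GRCm38.p6) for Lcn2, Saa1, Saa2, Orm2, Hpx, Apcs, Itih4 and Socs3, which are 8 of the 10 members. The windows of Lcn2 and Socs3 lie wholly inside the annotated genes, with 197 and 77 of their 250 bases in exons, and those of Saa2 and Hpx hold 43 and 21 bases of exons. On both strands the letters TTGCNNAA, a C/EBP-like motif, occurred once in 5 of the 8 windows (Lcn2, Saa1, Saa2, Orm2 and Hpx), and they occurred in 9.56% of all 32851 such windows. The STAT-like letters TTCNNNGAA occurred in the windows of Apcs, Itih4 and Socs3 and in 7.02% of all windows, and a consensus NF-kB motif occurred in none of the 8 and in 1.41% of all windows. A match is a description of the letters and not of a bound site. Shown are the members with a C/EBP-like match in bases before the first annotated exon, which leaves out Lcn2, and capitals mark the C/EBP-like letters.
Saa1, chr7:46742981-46743230, minus strand: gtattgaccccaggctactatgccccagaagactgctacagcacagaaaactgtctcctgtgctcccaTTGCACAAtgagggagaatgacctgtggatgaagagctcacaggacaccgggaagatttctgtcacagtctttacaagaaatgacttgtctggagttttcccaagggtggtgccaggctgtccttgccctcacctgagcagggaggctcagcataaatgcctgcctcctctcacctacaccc
Saa2, chr7:46751583-46751789, plus strand: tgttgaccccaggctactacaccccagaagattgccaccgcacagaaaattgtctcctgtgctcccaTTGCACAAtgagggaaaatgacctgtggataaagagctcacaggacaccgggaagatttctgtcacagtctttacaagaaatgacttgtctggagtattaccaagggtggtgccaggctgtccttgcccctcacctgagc
Orm2, chr4:63362199-63362448, plus strand: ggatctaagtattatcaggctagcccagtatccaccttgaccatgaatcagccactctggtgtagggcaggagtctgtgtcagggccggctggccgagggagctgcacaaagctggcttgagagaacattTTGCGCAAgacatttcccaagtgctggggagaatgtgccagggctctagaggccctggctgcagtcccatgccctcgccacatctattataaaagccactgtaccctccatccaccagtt
Hpx, chr7:105600138-105600366, minus strand: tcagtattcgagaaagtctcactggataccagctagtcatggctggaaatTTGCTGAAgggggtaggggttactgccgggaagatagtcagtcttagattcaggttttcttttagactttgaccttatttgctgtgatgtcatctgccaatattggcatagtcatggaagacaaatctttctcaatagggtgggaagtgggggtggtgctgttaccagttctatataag

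The effect of NDMA was examined within each genotype and collection. In WT mice 6 members were called higher with NDMA at Day1, 4 at Day2 and Lcn2 alone at Day5, and none was called at Week10 or Month10. Hp, Hpx and Itih4 were called at no WT collection. In Mgmt-/- mice 4 or more members were called higher at every collection. A gene was called when its adjusted p in limma was under 0.05 and its difference passed 0.58 on the log2(value + 1) scale. Those WT calls were 6 of 9 tested members at Day1, against 5.01% of all genes tested, 4 of 9 at Day2 against 3.33%, and 1 of 9 at Day5 against 2.22%. None of 9 was called higher at Week10 against 0.0249% of genes, and none of 10 at Month10 against 0%. No member was called lower in WT mice, where the shares of all genes called lower were 4.19%, 2.91%, 1.39%, 0% and 0% from Day1 to Month10. At an unadjusted p under 0.05 there were 0 of 9 members at Week10 in WT mice, against 350 of 8048 genes tested. At Month10 there were 6 of 10 members, against 757 of 9254 genes. In edgeR and DESeq2 no member was called at either WT collection.

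Among Mgmt-/- mice 5 of 10 members were called higher at Day1, against 9.06% of all genes tested, 6 of 9 at Day2 against 12.4%, 7 of 9 at Day5 against 11.1%, 6 of 10 at Week10 against 7.27%, and 4 of 10 at Month10 against 4.75%. The Day2 and Day5 counts include Orm2, which passed the filter on low values only through the NDMA mice (saline means of 1.57 and 1.82). Itih4 at Day1 was the 1 member called lower, and the shares of all genes called lower were 8.64%, 7.5%, 6.71%, 3.88% and 2.99% from Day1 to Month10. The median log2 difference of the tested members was 1.79, 2.09, 1.29, 0.88 and 0.95 at the 5 collections in Mgmt-/- mice, and the median of all genes was 0.02, 0.03, 0.03, 0.04 and -0.01. In WT mice the members' medians were 1.47, 1.64, 0.37, 0.01 and 0.55, and those of all genes were -0.03, -0.08, -0.07, -0.03 and -0.06. In whole liver, a change in the number of cells of a type and a change in RNA per cell cannot be told apart. Scaling all libraries to the same total moved the calls over all genes in Mgmt-/- mice from 911 higher and 869 lower to 1635 and 512 at Day1, from 1170 and 710 to 1681 and 413 at Day2, from 1037 and 624 to 1451 and 412 at Day5, and from 704 and 376 to 1162 and 177 at Week10, with medians of all genes of 0.20, 0.20, 0.17 and 0.24. In WT mice it moved 452 and 378 to 526 and 279 at Day1, and 285 and 249 to 384 and 181 at Day2. No member called in either genotype changed its direction under that scaling, but it shifts all genes of a library alike, so this decides little. At Mgmt-/- Day1 it ended the call of Itih4 (-0.43) and added Hpx, Apcs and Socs3 (0.68, 0.71 and 0.91). It also added Hpx at WT Day1 (0.60), Hp at Mgmt-/- Day2 (0.64) and Apcs at Mgmt-/- Week10 (0.72).

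**Figure D1:**
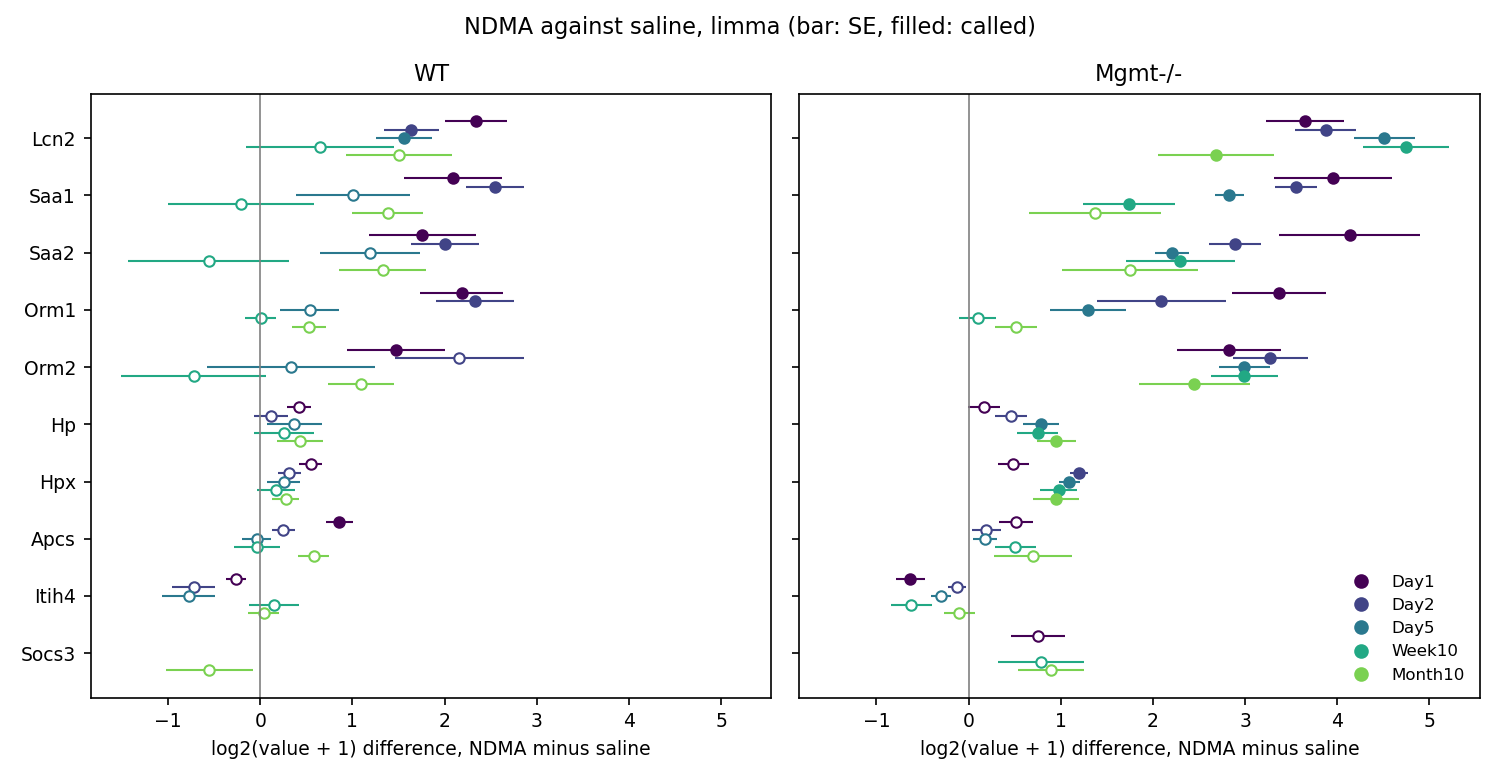
NDMA effect on each acute phase gene, as the difference in log2(value + 1) between NDMA and saline mice (x axis), for WT (left) and Mgmt-/- (right) mice at 5 collections (colours). Points are limma estimates, bars are standard errors and filled points were called, and Lcn2 and Orm2 are filled at all 5 collections in Mgmt-/- mice.

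Lcn2 encodes lipocalin-2, a secreted protein that binds bacterial siderophores and is also made by neutrophils. It was the member with the largest difference in Mgmt-/- mice at Day2, Day5, Week10 and Month10. In WT saline mice Lcn2 ranged from 14.1 to 388 at Day1 (median 32.1), and in WT NDMA mice from 66.5 to 1094 (median 241). All 26 NDMA mice were above the saline median, but only 3 exceeded the highest saline mouse. The difference was 2.34 (SE 0.34, 5.06-fold, limma adjusted p 9.73e-07) on the log2(value + 1) scale.

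At Day2 WT saline mice held 21.8 to 147 (median 36.7) and NDMA mice 84.5 to 221 (median 134) normalised reads of Lcn2, with 7 of 8 saline mice below every NDMA mouse and a difference of 1.64 (SE 0.30, adjusted p 0.00253 in limma). At Day5 the ranges were 17.1 to 85.9 (median 36.1) and 68.3 to 179 (median 112), with a difference of 1.56 (SE 0.31, limma adjusted p 0.00737). At Week10 the WT groups overlapped, from 5.46 to 318 in saline mice and from 8.12 to 254 in NDMA mice, with 4 of 8 saline mice below every NDMA mouse, and the difference of 0.64 (SE 0.80) was not called. At Month10 WT saline mice held 2.92 to 29.6 (median 13.6) and NDMA mice 5.99 to 670 (median 22.4), and the difference of 1.50 (SE 0.57) was not called either (limma adjusted p 0.554).

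Lcn2 in Mgmt-/- mice was higher with NDMA at each collection. At Day1 saline mice held 17.4 to 608 (median 41.9) and NDMA mice 235 to 2055 (median 834), and 11 of 12 saline mice were below every NDMA mouse. At Day2 the ranges were 11.2 to 40.1 (median 27.1) and 222 to 857 (median 332), at Day5 12.8 to 82.6 (median 20.2) and 384 to 787 (median 579), and at Week10 7.12 to 87.7 (median 19.3) and 322 to 1034 (median 698). The groups did not overlap at Day2, Day5 or Week10. At Month10 saline mice held 3.18 to 251 (median 48.4) and NDMA mice 61.1 to 2091 (median 263), and 7 of 13 NDMA mice exceeded every saline mouse. The log2 differences were 3.65 (SE 0.43), 3.87 (SE 0.33), 4.51 (SE 0.33), 4.74 (SE 0.47) and 2.68 (SE 0.63) in order of collection, or 12.5-, 14.7-, 22.7-, 26.8- and 6.41-fold, with limma adjusted p values of 1.2e-06, 7.38e-07, 2.32e-07, 1.81e-06 and 0.00788. The neighbouring estimates from Day1 to Week10 lay within 1 log2 unit of each other and were not tested against each other.

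Neutrophils also make Lcn2, and most of their tested markers were called lower in Mgmt-/- NDMA mice at Day1 (4 of 7) and Day5 (5 of 6), where Lcn2 was higher. At Day2, 3 of 6 were lower and Ltf was higher, and at Month10 none of 4 was called. The shares of all genes called lower were 8.64%, 7.5% and 6.71% from Day1 to Day5. In WT mice 1 of 6 was called higher at Day1, against 5.01% of all genes, and none later. The Mgmt-/- sum of 13 markers, of which S100a8 was the most abundant, ranged from 241 to 973 (median 345) in saline mice and from 67.4 to 106 (median 86.0) in NDMA mice at Day5. Among the markers called lower there, Camp and Ngp were down by 4.60 and 3.96 (adjusted p 1.15e-08 and 4.53e-10 in limma), and 4 of 13 had a median of 0 in NDMA mice. At Week10 the sums overlapped, at 33.4 to 560 (median 79.1) in saline mice and 101 to 766 (median 199.5) in NDMA mice. There 2 of 6 tested markers, Camp and Ngp, were called higher, by 2.16 and 2.46, against 7.27% of all genes.

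**Figure D2:**
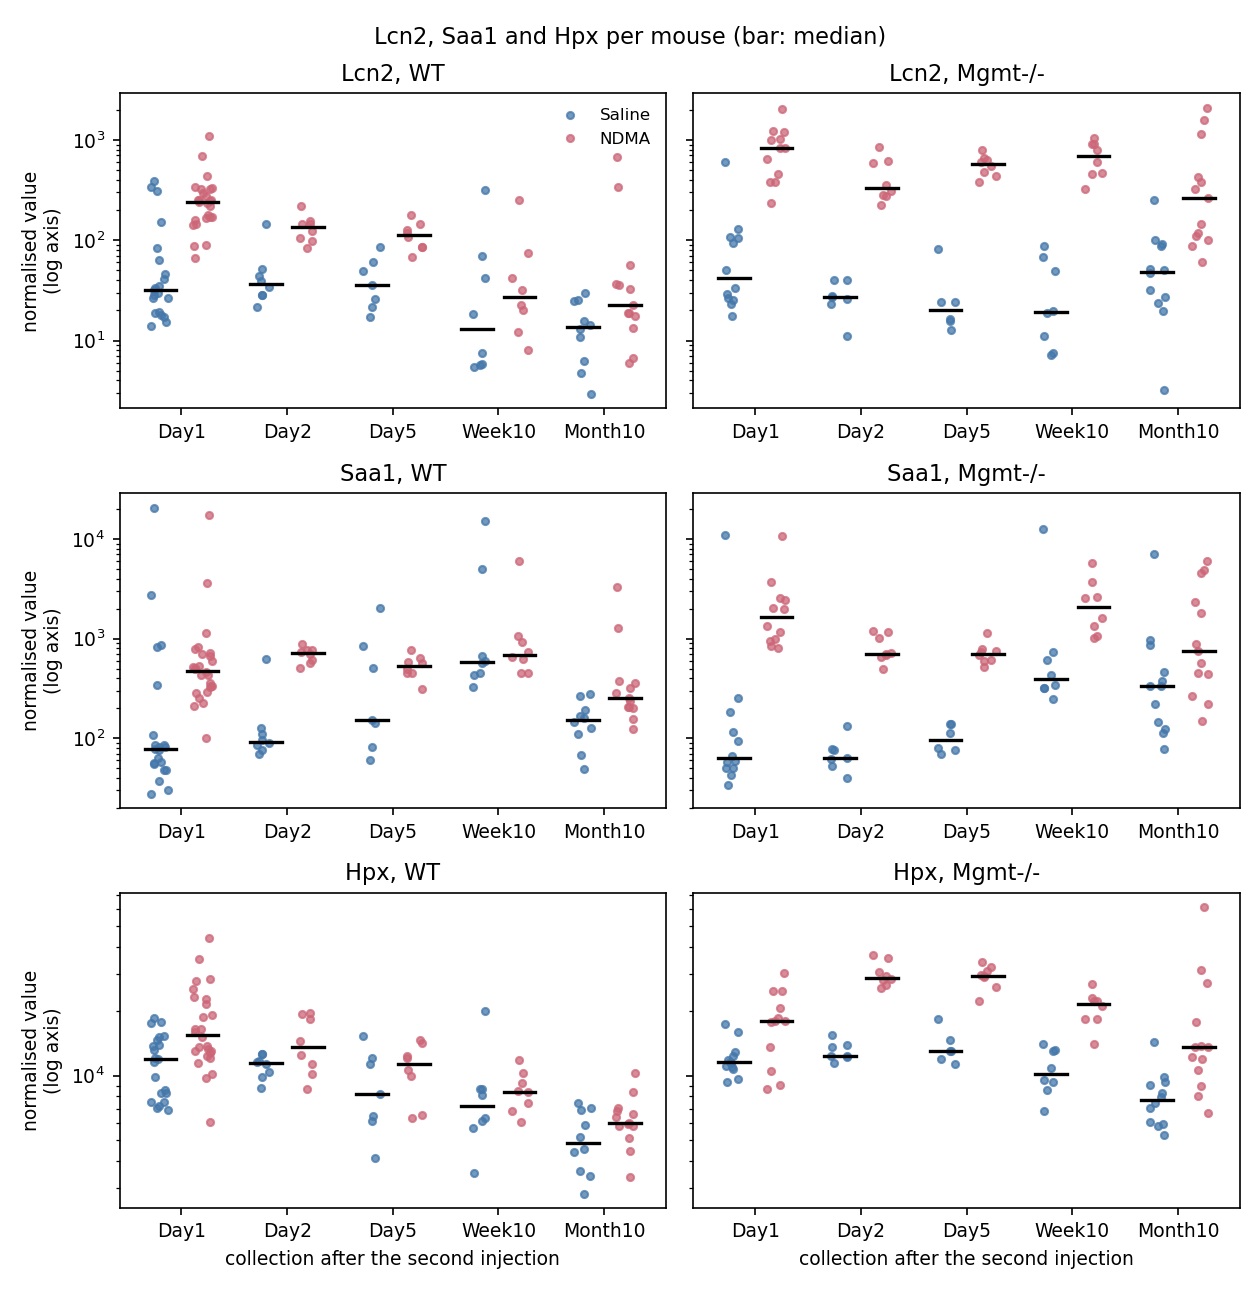
Normalised values (log axis) of Lcn2, Saa1 and Hpx in each mouse by collection, with WT left, Mgmt-/- right, saline in blue, NDMA in red and bars at medians. NDMA mice lie above all saline mice for Lcn2 in Mgmt-/- livers at Day2, Day5 and Week10, and single saline mice reach 20696 for Saa1 in WT livers at Day1.

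Saa1 and Saa2 encode serum amyloid A proteins, apolipoproteins of high-density lipoprotein that are classical markers of acute inflammation. Both were called higher with NDMA on Day1 and Day2 in WT mice and from Day1 to Week10 in Mgmt-/- mice. Several of these calls were lost in edgeR, namely Saa1 (1.48, adjusted p 0.171) and Saa2 (1.21, adjusted p 0.378) at WT Day1, Saa2 at WT Day2 (1.83, adjusted p 0.0573) and at Mgmt-/- Day1 (4.72, adjusted p 0.0663), and both at Mgmt-/- Week10. In WT mice Saa1 ranged from 27.6 to 20696 (median 77.4) in saline and from 101 to 17455 (median 477) in NDMA mice at Day1. All 26 NDMA mice were above the saline median and none exceeded the highest saline mouse. The difference was 2.09 (SE 0.53, limma adjusted p 0.00322), although the group means were 1261 and 1254 because 1 mouse in each group held most of the total. At Day2 the ranges were 68.6 to 618 (median 92.2) and 505 to 884 (median 714), and the difference was 2.55 (SE 0.32, limma adjusted p 0.000204). At Day5, Week10 and Month10 the WT differences in Saa1 were 1.01, -0.21 and 1.38, and none was called.

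Mgmt-/- values of Saa1 ranged from 33.8 to 10877 (median 62.6) in saline and from 807 to 10723 (median 1662) in NDMA mice at Day1, and 11 of 12 saline mice were below every NDMA mouse. At Day2 the saline mice held 40.1 to 132 and the NDMA mice 496 to 1190, and at Day5 69.3 to 139 and 515 to 1127. The groups did not overlap at either collection. At Week10 saline mice held 248 to 12651 (median 388) and NDMA mice 1006 to 5791 (median 2065), with 7 of 8 saline mice below every NDMA mouse. The log2 differences from Day1 to Week10 were 3.95 (SE 0.64), 3.55 (SE 0.23), 2.83 (SE 0.16) and 1.74 (SE 0.50), with limma adjusted p values of 7.42e-05, 3.96e-09, 9.56e-12 and 0.0287. The Week10 call was lost in edgeR (0.97, adjusted p 0.412), without covariates (limma adjusted p 0.145) and when either replicate D209029 or replicate D209001 was left out. At Month10 the difference of 1.37 (SE 0.72) was not called.

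The WT differences in Saa2 were 1.76 (SE 0.58) at Day1 and 2.01 (SE 0.37) at Day2, with limma adjusted p values of 0.0251 and 0.00322, and the first was not called without covariates (limma adjusted p 0.0646). For Mgmt-/- mice they were 4.14 (SE 0.77), 2.89 (SE 0.28), 2.20 (SE 0.19) and 2.30 (SE 0.59) from Day1 to Week10, with limma adjusted p values of 0.000321, 5.68e-07, 4.1e-09 and 0.0164. Saline and NDMA mice did not overlap at Day2, at 12.5 to 44.5 and 86.1 to 296, or at Day5, at 30.6 to 61.4 and 136 to 332. At Week10 the Saa2 call was lost in edgeR (1.31, adjusted p 0.331) and in DESeq2 (1.37, adjusted p 0.194).

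Orm1 and Orm2 encode orosomucoids, plasma carriers of basic and lipophilic compounds. Orm1 was called higher with NDMA at Day1 and Day2 in WT mice and from Day1 to Day5 in Mgmt-/- mice, and Orm2 was called higher at every collection in Mgmt-/- mice. In WT mice Orm1 ranged from 0 to 395 (median 15.5) in saline and from 14.9 to 883 (median 56.8) in NDMA mice at Day1, and the difference was 2.18 (SE 0.45, limma adjusted p 0.000354). At Day2 it ranged from 10.1 to 232 and from 129 to 217, with 7 of 8 saline mice below every NDMA mouse and a difference of 2.33 (SE 0.42, limma adjusted p 0.00305). At Week10 WT saline mice held 737 to 2777 (median 1737) and NDMA mice 985 to 2171 (median 1605), and the difference was 0.01 (SE 0.17).

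Mgmt-/- values of Orm1 ranged from 1.67 to 317 (median 9.01) in saline and from 54.4 to 522 (median 305) in NDMA mice at Day1, with a difference of 3.37 (SE 0.51, limma adjusted p 3.39e-05). The differences were 2.09 (SE 0.70) at Day2 and 1.29 (SE 0.41) at Day5, where both groups overlapped. These calls were near the threshold, with limma adjusted p values of 0.0428 and 0.0411. Leaving out 1 library ended them in 12 of 15 fits at Day2 and 11 of 14 at Day5, and edgeR gave 1.45 (adjusted p 0.158) and 0.91 (adjusted p 0.155). At Week10 and Month10 the differences of 0.10 and 0.51 were not called.

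Orm2 was at 0 in 4 of 12 Mgmt-/- saline mice at Day1 and in 3 of 7 at Day2. Its Mgmt-/- range was 0 to 115 (median 0.76) in saline and 4.29 to 108 (median 22.4) in NDMA mice at Day1. The ranges were 0 to 4.45 and 12.0 to 52.7 at Day2, 0.85 to 3.65 and 16.1 to 26.3 at Day5, and 3.13 to 51.1 and 59.9 to 253 at Week10. The groups did not overlap at any of these last 3 collections. At Day2 and Day5 the saline means of 1.57 and 1.82 were under the mean of 5 that the filter asked for, so Orm2 entered those tests only through the NDMA mice, with means of 21.0 and 20.1. At Month10 saline mice held 3.56 to 142 (median 28.0) and NDMA mice 26.6 to 916 (median 103). The log2 differences were 2.82 (SE 0.57), 3.27 (SE 0.40), 2.99 (SE 0.28), 2.99 (SE 0.36) and 2.45 (SE 0.60), with limma adjusted p values of 0.000539, 5.72e-07, 1.05e-08, 5.47e-06 and 0.0109. In WT mice the Day1 difference of 1.47 (SE 0.53, limma adjusted p 0.0413) was called and the Day2 difference of 2.16 (SE 0.70) was not (adjusted p 0.0657). The Day1 call was lost with a pseudocount of 5 (0.69), in edgeR (0.97, adjusted p 0.438), with no filter and without covariates (limma adjusted p 0.0505 and 0.07). The Day2 difference was called in edgeR (2.65, adjusted p 0.0247), with a pseudocount of 5 (1.36, limma adjusted p 0.0468) and in batch 200710Eng alone (2.94, limma adjusted p 3.51e-06). It was also called without replicate D215006, the WT NDMA library at Day2 with the fewest reads (2.66, limma adjusted p 0.00239), and without saline replicate D215004 (2.77).

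**Figure D3:**
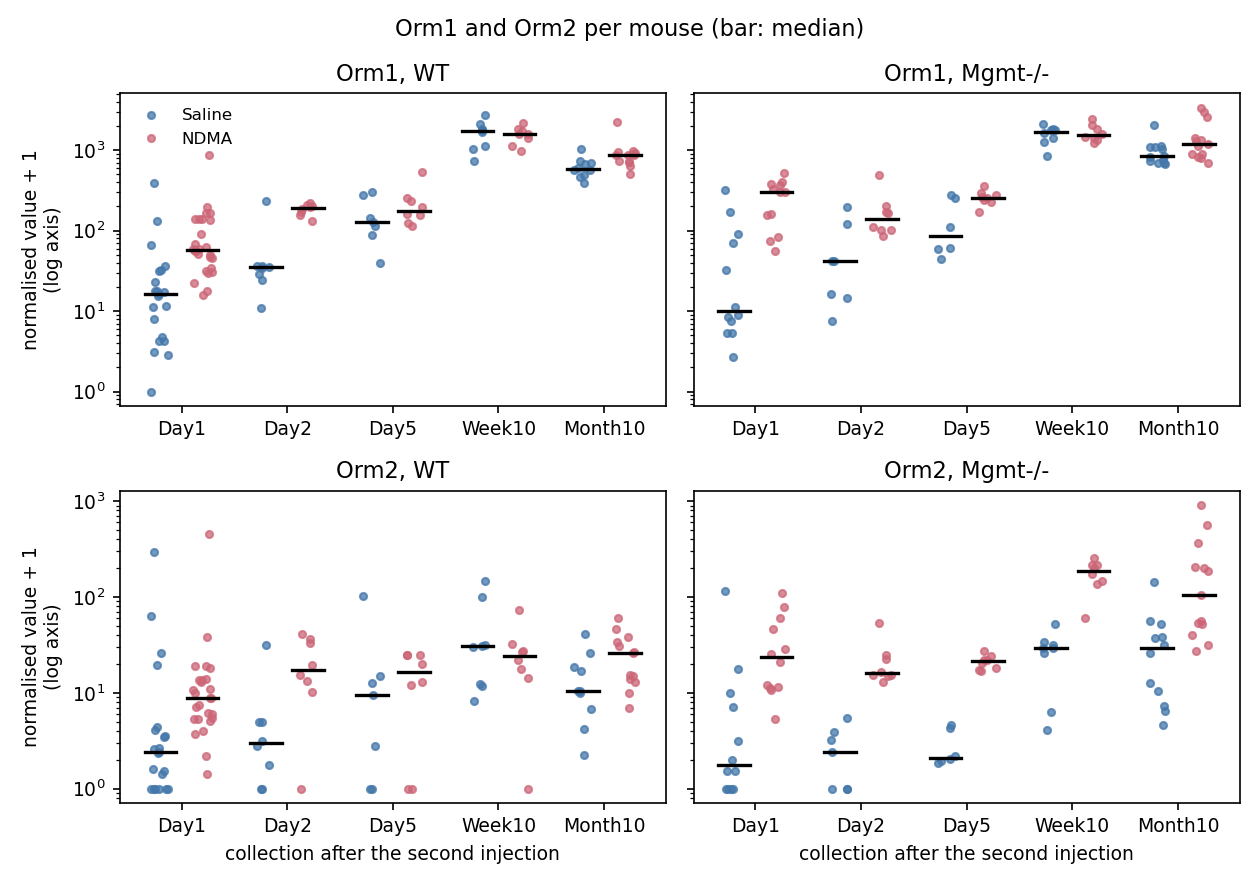
Normalised values of Orm1 and Orm2 plus 1 (log axis) in each mouse by collection, with WT left, Mgmt-/- right, saline in blue, NDMA in red and bars at medians. Orm1 lies between 737 and 2777 in all WT saline mice at Week10, and Orm2 separates NDMA from saline mice in Mgmt-/- livers at Day2, Day5 and Week10.

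Hp encodes haptoglobin, which binds free haemoglobin, and Hpx encodes hemopexin, which binds free haem. Both are abundant in saline liver, and Hpx was called higher with NDMA from Day2 to Month10 in Mgmt-/- mice and at no collection in WT mice, although at WT Day1 edgeR (0.59, adjusted p 0.00128), DESeq2 (0.59, adjusted p 0.000272) and scaling to the same total (0.60) called it. At Day2 Hpx ranged from 11420 to 15464 in Mgmt-/- saline mice and from 25796 to 36462 in NDMA mice. At Day5 the ranges were 11391 to 18350 and 22289 to 34018, and the groups overlapped at neither collection. At Week10 saline mice held 6841 to 14023 and NDMA mice 14001 to 26732, so that the lowest NDMA mouse and the highest saline mouse were nearly equal. The log2 differences were 1.20 (SE 0.10), 1.09 (SE 0.11), 0.98 (SE 0.20) and 0.94 (SE 0.25) from Day2 to Month10, or 2.30-, 2.13-, 1.97- and 1.92-fold, with limma adjusted p values of 4.3e-10, 6.52e-08, 0.00167 and 0.0136. At Day1 the Hpx differences of 0.55 (SE 0.13) in WT mice and 0.49 (SE 0.16) in Mgmt-/- mice passed the adjusted p but not the fold threshold. The Mgmt-/- Day1 difference was called with all libraries scaled to the same total (0.68, limma adjusted p 0.00037) and in batch 191212Eng alone (0.70, limma adjusted p 0.00083).

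Hp ranged from 10216 to 33554 (median 15074) in Mgmt-/- saline mice and from 23460 to 36248 (median 27085) in NDMA mice at Day5, and 5 of 6 saline mice were below every NDMA mouse. The differences were 0.78 (SE 0.20) at Day5, 0.75 (SE 0.23) at Week10 and 0.95 (SE 0.21) at Month10, with limma adjusted p values of 0.00851, 0.03 and 0.00299. The Week10 call was lost in edgeR (0.64, adjusted p 0.0731) and in 6 of 16 fits that left out 1 library. In WT mice the Hp differences lay between 0.11 and 0.43 and none was called. At Day1 the WT difference of 0.42 passed the adjusted p (0.0133 in limma) but not the fold threshold, and it was called in batch 210901Eng alone (0.71, limma adjusted p 0.0103) and in neither of the other batches (0.39 and -0.08).

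Apcs encodes serum amyloid P component, a pentraxin, and Itih4 encodes a heavy chain of the inter-alpha-trypsin inhibitor family. Apcs was called at WT Day1, where it ranged from 1099 to 4111 (median 2364) in saline and from 1757 to 15294 (median 4180) in NDMA mice, with a difference of 0.86 (SE 0.15, limma adjusted p 1.51e-05). In Mgmt-/- mice the Day1 difference in Apcs was 0.51 (SE 0.19), which passed the adjusted p (0.0416 in limma) but not the fold threshold. With all libraries scaled to the same total Apcs was called in Mgmt-/- mice at Day1 (0.71) and Week10 (0.72), and DESeq2 called it at Month10 (1.25, adjusted p 0.0481). Itih4 went the other way. It ranged from 938 to 4212 (median 2030) in Mgmt-/- saline mice and from 814 to 2494 (median 1131) in NDMA mice at Day1, and fell by 0.63 (SE 0.16, limma adjusted p 0.00237). That call was lost in edgeR and DESeq2, in which the difference was under the fold threshold (-0.56 and -0.55), with all libraries scaled to the same total (-0.43) and without covariates. The WT differences in Itih4 were -0.72 (SE 0.24) at Day2 and -0.77 (SE 0.29) at Day5, not called. Without the libraries under 300000 reads they were -0.90 and -0.97, and both were called (limma adjusted p 0.0018 and 0.0103). Batch 200710Eng alone also called both (-0.71 and -1.43, limma adjusted p 0.000503 and 0.000932). At WT Day5 edgeR (-0.89, adjusted p 0.0379) and DESeq2 (-0.85, adjusted p 0.0366) called Itih4 lower. The Mgmt-/- Week10 difference of -0.62 (SE 0.22) was not called in limma, but edgeR (-0.70, adjusted p 0.036) and DESeq2 (-0.68, adjusted p 0.0211) called it.

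Socs3 was scarce throughout. Group medians lay between 1.03 and 10.9 normalised reads, and it passed the filter on low values in 4 of the 10 comparisons. The differences there were -0.55 (SE 0.47) in WT mice at Month10, and 0.76 (SE 0.30), 0.79 (SE 0.47) and 0.89 (SE 0.36) in Mgmt-/- mice at Day1, Week10 and Month10. None was called (limma adjusted p 0.731, 0.0572, 0.324 and 0.113). All 13 NDMA mice were above the saline median in Mgmt-/- mice at Month10, and with all libraries scaled to the same total the Mgmt-/- Day1 difference was 0.91 and was called (limma adjusted p 0.0209).

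Day1 libraries came from several labelled batches, which were also fitted apart, and the difference between batches was not tested. In WT mice Lcn2 differed by 3.16 in batch 191212Eng (8 saline and 8 NDMA mice, adjusted p 0.00341 in limma), by 2.59 in batch 210901Eng (9 and 12 mice, adjusted p 2.63e-06) and by 0.44 in batch 200803Eng (4 and 6 mice, adjusted p 0.999903). In that last batch 0 of all genes and so no member was called, and Saa2, Orm1 and Orm2 differed by -0.14, -0.05 and -0.77. Its 2 female saline mice, replicates D209073 and D209074, held 340 and 310 of Lcn2, while its 2 male saline mice held 63.2 and 46.1. The 2 libraries that went against their labelled sex, with 89.7 and 66.5 of Lcn2, belong to this batch too. Leaving both out of the pooled fit gave a Lcn2 difference of 2.52 (limma adjusted p 3.87e-08) and the same 6 members called. In Mgmt-/- mice Lcn2 differed by 4.23 in batch 191212Eng (8 and 8 mice, limma adjusted p 1.52e-05) and by 2.48 in batch 200803Eng (4 and 4 mice, limma adjusted p 0.077). In batch 200803Eng alone Saa1, Saa2, Orm1 and Orm2 differed by 2.18, 2.03, 1.26 and 0.84 in Mgmt-/- mice (limma adjusted p 0.55, 0.63, 0.273 and 0.751). The pooled fit gave 3.95, 4.14, 3.37 and 2.82. All WT males at Day2, Day5 and Week10 came from batch 200710Eng and all WT females from batch 200724Eng, so an effect of sex and one of batch cannot be told apart. At Day2 and Day5 Lcn2 differed by 1.97 and 1.87 in the WT males alone (limma adjusted p 1.85e-07 and 0.00038) and by 1.31 and 1.29 in the WT females alone (limma adjusted p 0.387 and 0.786). In the females 0 of all genes and so no member was called at either collection, and the difference between the sexes was not tested. These females include NDMA replicates D215006 at Day2 and D215014 at Day5, which held under 300000 reads. Leaving these out of the pooled fits moved the calls over all genes from 534 to 871 at Day2 and from 312 to 794 at Day5.

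Whether Mgmt-/- mice responded more than WT mice was tested as the interaction of genotype and treatment on recovered whole reads with edgeR. Lcn2, Orm2 and Hpx were the members called with a larger response in Mgmt-/- mice, each at some collections between Day2 and Week10. A member not called was not shown to respond alike in both genotypes. At Day1, with 70 libraries, none of 9 tested members was called and 0.00993% of all genes were. An unadjusted p under 0.05 was found for 3 members, a count given without a share of all genes, and limma called none. At Day2, with 28 libraries, 2 of 9 were called against 4.06% of genes. The Mgmt-/- response exceeded the WT response by 2.24 for Lcn2 (edgeR adjusted p 0.0267) and by 0.96 for Hpx (edgeR adjusted p 0.00441).

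At Day5, with 29 libraries, 3 of 9 members were called against 2.51% of genes, with larger Mgmt-/- responses of 2.82 for Lcn2, 3.83 for Orm2 and 0.83 for Hpx (edgeR adjusted p 0.00203, 0.0346 and 0.047). The Orm2 value rests on a gene scarce in Mgmt-/- saline mice at Day5, with means of 1.82 in saline and 20.1 in NDMA mice. Without a batch term the Orm2 and Hpx calls were lost (adjusted p 0.0508 and 0.122). In limma the Orm2 call was lost as well (2.66, adjusted p 0.209), and with relative log expression size factors Saa1 was called (2.79, edgeR adjusted p 0.0454). At Week10, with 32 libraries, 2 of 9 were called against 7.13% of genes, at 4.56 for Lcn2 and 3.53 for Orm2 (edgeR adjusted p 0.0136 and 0.00334). At Month10, with 48 libraries, none of 10 was called against 1.58%, 3 had an unadjusted p under 0.05 (again without a share of all genes) and limma called none. The genotypes shared no batch at Day2, Day5 and Week10, so a batch that altered the response cannot be told apart from the genotype there.

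In saline mice the members were not static as the liver grew. Orm1 rose from infancy to Week10, and Apcs fell. Ages were compared where they shared batches. In WT saline mice none of 9 tested members was called between Day2 and Day5 (0.906% of all genes were called in either direction), and edgeR called none either. Between Day2 and Week10, 7 of 9 were called against 19.5% of genes, and between Week10 and Month10, 5 of 9 against 61%. In Mgmt-/- saline mice 1 of 10 was called between Day1 and Day5 against 5.23% of genes, 4 of 10 between Day1 and Week10 against 16.8%, and 1 of 10 between Week10 and Month10 against 51%.

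Orm1 had a median of 15.5 in WT saline mice at Day1, 33.9 at Day2, 126 at Day5, 1737 at Week10 and 585 at Month10. All 8 WT saline mice at Week10 exceeded every younger saline mouse. The difference between Week10 and Day2 was 5.39 (SE 0.61, limma adjusted p 1.55e-09). In Mgmt-/- saline mice the medians were 9.01, 40.5, 85.7, 1696 and 841, and the differences from Day1 were 3.72 (SE 0.52) at Day5 and 3.49 (SE 0.59) at Week10, with limma adjusted p values of 2.09e-05 and 2.06e-05. The Mgmt-/- estimates adjust for batch, and Day5 and Week10 shared no batch. Orm2 rose by 3.16 between Day2 and Week10 in WT mice (limma adjusted p 0.00829), a call that was lost in edgeR (3.87, adjusted p 0.0616) and in batch 200724Eng alone (limma adjusted p 0.105).

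Apcs fell with age in both genotypes. Its WT saline medians were 2364, 2303, 2171, 870 and 303 from Day1 to Month10, with differences of -1.44 (SE 0.22) from Day2 to Week10 and -1.57 (SE 0.22) from Week10 to Month10 (limma adjusted p 3.98e-07 and 2.5e-08). In Mgmt-/- mice it fell by 1.77 (SE 0.29) from Day1 to Week10 (limma adjusted p 5.1e-06). The Mgmt-/- step of -0.32 (SE 0.22) from Week10 to Month10 was not called (limma adjusted p 0.199). Hp fell by 0.88 (SE 0.24) from Day2 to Week10 and by 0.82 (SE 0.25) from there to Month10 in WT mice (limma adjusted p 0.00492 and 0.00335). The first of these calls was lost in edgeR (-0.71, adjusted p 0.116), the second with all libraries scaled to the same total (-0.41, limma adjusted p 0.119), and both in batch 200710Eng alone. Itih4 fell by 0.98 from Day2 to Week10, a call made in neither batch alone, and rose by 0.79 to Month10 in WT mice (limma adjusted p 0.0018 and 0.00548), and it rose by 1.36 from Week10 to Month10 in Mgmt-/- mice (limma adjusted p 2.57e-08). The last WT step was not called in edgeR (0.31, adjusted p 0.305) or in batch 200710Eng alone (0.74, limma adjusted p 0.105), and the median of all genes at that step was 0.36 in WT and 0.18 in Mgmt-/- mice, 0.75 and 0.56 with libraries scaled to the same total, and 0.05 and 0.04 in edgeR.

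Saa1 and Saa2 rose by 3.12 and 3.59 between Day2 and Week10 in WT saline mice and fell by 2.78 and 2.68 from there to Month10 (limma adjusted p 0.00777, 0.00359, 0.00769 and 0.0149). None of these 4 calls was made in batch 200710Eng or batch 200724Eng alone. At Week10 the Saa1 values of the 8 WT saline mice ran from 329 to 15284 around a median of 583, and the second highest mouse held 5034. Lcn2 was lower at Week10 than at Day1 in Mgmt-/- saline mice, by 2.75 with batch in the fit (limma adjusted p 0.00134) and by 1.28 with sex alone (adjusted p 0.058).

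**Figure D4:**
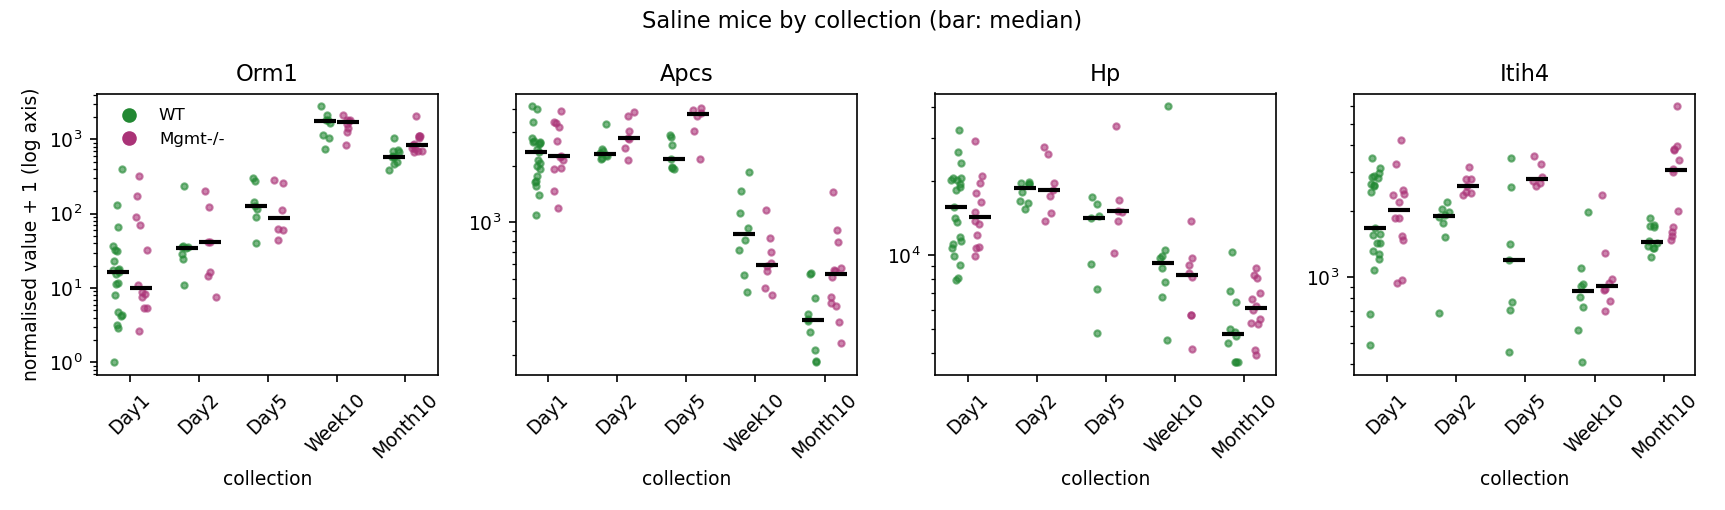
Normalised values plus 1 (log axis) of Orm1, Apcs, Hp and Itih4 in each saline mouse by collection, with WT in green, Mgmt-/- in purple and bars at medians. Orm1 medians reach 1737 and 1696 at Week10, and the WT Apcs median falls from 2364 at Day1 to 303 at Month10.

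Single saline mice held very high levels of several members at once. Among WT saline mice at Day1, replicate D389031 held 20696 of Saa1 against 2738 in the next highest, and it was also highest in Lcn2 (388), Orm1 (395), Orm2 (295) and Hp (32219). Among WT saline mice at Week10, replicate D202018 was highest in all 10 members, with 15284 of Saa1 and 40399 of Hp. Among Mgmt-/- saline mice replicate D209093 held 10877 of Saa1 at Day1 against 253 in the next highest, replicate D209003 held 12651 at Week10 against 724, and replicate D209036 held 7095 at Month10 against 970. These libraries had kidney marker sums of 1.64 or less, and their neutrophil marker sums were 248, 135, 2070, 45.5 and 262 in the order given.

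Across all libraries of a genotype, after the mean of each group had been taken off, Lcn2 varied most closely with Saa1 (Pearson r 0.77), Saa2 (0.75), Fgl1 (0.66), Orm2 (0.58) and Prg4 (0.57) among 4927 genes in 117 WT libraries. In 94 Mgmt-/- libraries the 5 closest of 6107 genes were Orm2 (0.75), Saa2 (0.71), Saa1 (0.70), Fgl1 (0.66) and Serpina10 (0.65). Saa1 varied most closely with Saa2 in both genotypes, at 0.97 and 0.97, followed by Saa3 (0.78) and Lcn2 (0.77) in WT mice and by Lcn2 (0.70) and Orm2 (0.69) in Mgmt-/- mice. Itih4 had the lowest r with Lcn2 among the members with a value, at 0.27 in WT and 0.22 in Mgmt-/- mice. The libraries share batches and depths, and single mice with very high values weigh on each r.

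**Figure D5:**
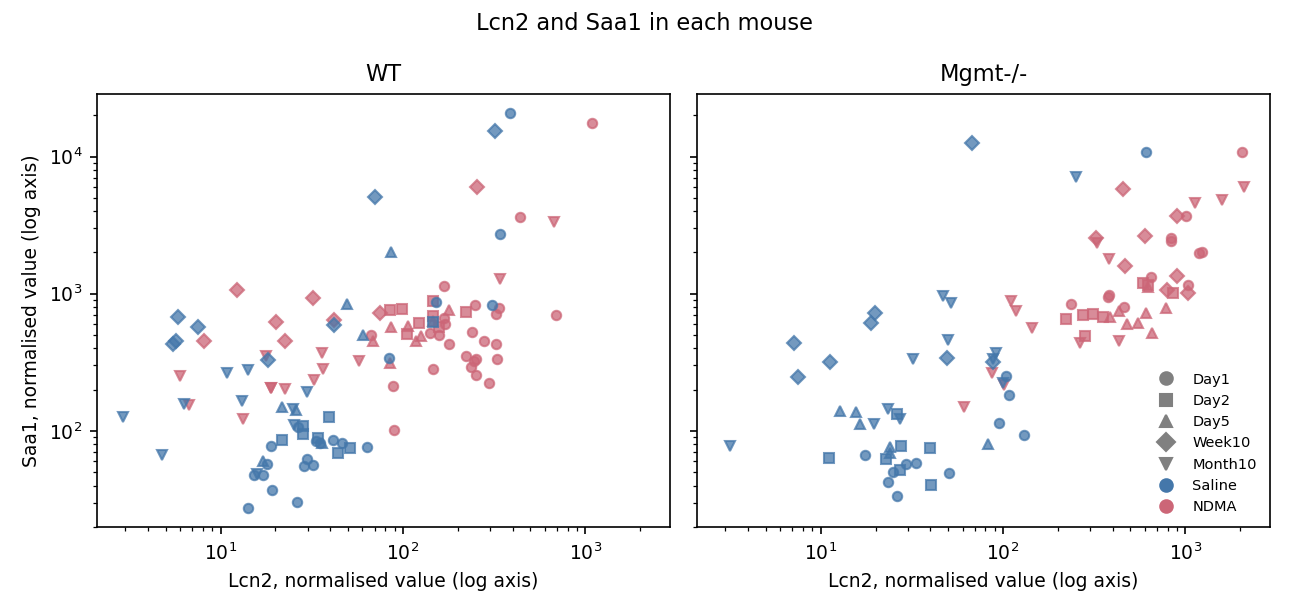
Lcn2 (x, log axis) against Saa1 (y, log axis) in normalised reads, 1 point a mouse, with WT left, Mgmt-/- right, saline in blue, NDMA in red and collections by marker shape. Mice high in one gene tend to be high in the other in both treatments, with saline mice up to 388 and 20696 in WT livers.

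Other genes of the response moved in both directions. Of 24 further positive acute phase genes, 5 of 22 tested were called higher in WT mice at Day1 and none lower, against 5.01% and 4.19% of all genes. At WT Day2, 2 of 22 were higher and 4 lower, against 3.33% and 2.91%. At WT Day5, 1 of 23 was higher and 1 lower, against 2.22% and 1.39%. Serpina3n, a secreted protease inhibitor, was higher by 1.08 at Day1 (limma adjusted p 3.76e-09), and Hamp, which encodes the iron hormone hepcidin, by 2.53 (limma adjusted p 3.16e-05). Complement C3 and fibrinogen chains Fga and Fgg were among those lower at Day2, by 0.78, 0.69 and 0.67. In Mgmt-/- mice 7 of 23 were higher and 3 lower at Day1, 7 of 22 and 1 at Day2, 8 of 23 and 1 at Day5, and 6 of 23 and none at Week10 and Month10. The shares of all genes from Day1 to Month10 were 9.06%, 12.4%, 11.1%, 7.27% and 4.75% higher. They were 8.64%, 7.5%, 6.71%, 3.88% and 2.99% lower, so the single lower calls at Day2 and Day5 were under the share of all genes. The list's median difference was 0.41, -0.29 and -0.34 from Day1 to Day5 in WT mice, and 0.11, 0.17, 0.37, 0.24 and 0.46 at the 5 collections in Mgmt-/- mice.

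Saa3, a serum amyloid A gene known from macrophages, was higher by 3.88, 4.54, 2.99 and 0.88 at Day1, Day2, Day5 and Month10 in Mgmt-/- mice (limma adjusted p 1.64e-08, 1.12e-09, 2.37e-05 and 0.0312). Cd14, a lipopolysaccharide co-receptor, was higher by 3.78 at Week10 (limma adjusted p 2.8e-07). Crp, whose product is only a weak acute phase reactant in mice, was lower by 0.60, 0.73 and 0.88 from Day1 to Day5 (limma adjusted p 0.001, 6.57e-05 and 1.01e-06).

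Negative acute phase genes, whose products decline in plasma during inflammation, were lower mainly on the first days. In Mgmt-/- mice 7 of 9 were called lower at Day1, 4 of 9 at Day2 and 1 of 9 at Day5 and Week10. The shares of all genes called lower there were 8.64%, 7.5%, 6.71% and 3.88%. At Month10 1 of 9 was higher, against 4.75% of all genes. Serpina6, which encodes the plasma carrier of glucocorticoids, was lower by 1.75 at Day1 (limma adjusted p 3.65e-05), and Alb, which encodes albumin, by 0.82 (limma adjusted p 1.13e-05). In WT mice 1 of 9 was lower at Day1 (Serpina6, by 1.11) and 2 of 9 at Day2 (Serpina6 by 1.38 and Alb by 0.92), against 4.19% and 2.91% of all genes. None was called later.

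Among genes that carry the interleukin-6 and interleukin-1 signal, calls in both directions were made in Mgmt-/- mice. Of 28 such genes, 2 of 22 tested were called higher and 5 lower at Day1, and 5 of 20 and 5 at Day2. At Day5 these were 4 of 19 and 4, at Week10 2 of 21 and 2, and at Month10 3 of 21 and none. The shares of all genes from Day1 to Month10 were 9.06%, 12.4%, 11.1%, 7.27% and 4.75% higher. They were 8.64%, 7.5%, 6.71%, 3.88% and 2.99% lower. The counts called higher at Day1 and Week10 were near the share of all genes. Lifr, a receptor of the interleukin-6 family, was lower by 0.76, 1.52, 2.89 and 1.98 from Day1 to Week10 (limma adjusted p 0.00147, 0.00864, 2.42e-09 and 1.32e-05), and Il6ra, the interleukin-6 receptor, was lower by 0.97 at Day1. Il1rn, the interleukin-1 receptor antagonist, was higher at all 5 collections, by 1.17, 1.39, 2.38, 1.62 and 1.52. In WT mice 1 of 18 was higher at Day1, near the 5.01% of all genes, and 4 were lower against 4.19%. A single gene of 18 was lower at Day2 against 2.91%, and 2 of 17 at Day5 against 1.39%. Lifr was lower each time, by 0.83, 1.03 and 1.51 (limma adjusted p 9.27e-07, 0.00388 and 0.0115).

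Among 15 partners of haptoglobin and hemopexin in haem, haemoglobin and iron handling, Hmox1, which encodes haem oxygenase, was higher by 1.27, 1.14 and 1.23 at Day2, Day5 and Week10 in Mgmt-/- mice (limma adjusted p 0.000165, 2.51e-05 and 0.0183). It was the 1 gene of this list called higher at each of them, out of 12, 12 and 13 tested, a share near or under the 12.4%, 11.1% and 7.27% of all genes called higher there. Called lower in Mgmt-/- mice were 4 of 12 at Day1, 2 of 12 at Day2, 1 of 12 at Day5 and 2 of 13 at Week10. The shares of all genes called lower were 8.64%, 7.5%, 6.71% and 3.88%. Cd163, the macrophage receptor for haptoglobin bound to haemoglobin, was lower by 1.58 at Day1 and by 1.46 at Week10 (limma adjusted p 0.00034 and 0.0081). In WT mice none was higher. Lower there were 2 of 11 tested at Day1 (Lrp1 and Blvrb), against 4.19% of all genes, and 1 of 11 at Day5 (Tfr2), against 1.39%.

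Markers of other liver cells moved in the same mice. Of 12 macrophage and Kupffer cell markers, 2, 7, 8, 7 and 5 were called higher from Day1 to Month10 in Mgmt-/- mice, and 3 were lower at Day1. The shares of all genes called higher were 9.06%, 12.4%, 11.1%, 7.27% and 4.75%, and 8.64% were lower at Day1. In WT mice 4 of these markers were higher and 1 lower at Day1, 2 and 2 at Day2, and 2 and none at Day5, with Lyz2 higher by 0.63, 0.68 and 1.33 (limma adjusted p 0.000424, 0.0117 and 0.00346), and none was called later. The WT shares of all genes from Day1 to Day5 were 5.01%, 3.33% and 2.22% higher and 4.19%, 2.91% and 1.39% lower. The Mgmt-/- sum, led by Lyz2, ranged from 1264 to 2036 in saline and from 2444 to 3510 in NDMA mice at Day5, and from 669 to 1667 and 1896 to 2844 at Week10. No marker of the list had a median of 0 in any group. Of 8 cholangiocyte markers, 3 or fewer were tested, and Spp1 made up most of the sum. In Mgmt-/- mice the sum ranged from 70.7 to 637 in saline and from 428 to 1851 in NDMA mice at Week10, with overlap. At Month10 the ranges were 53.6 to 147 and 200 to 3690, without overlap. Spp1 was called higher by 3.13 and 2.48 at these collections (limma adjusted p 2.37e-05 and 1.52e-05), and at WT Day1 by 0.65 (limma adjusted p 0.000239). At Mgmt-/- Day5 the same sum was lower with NDMA, at 262 to 365 and 113 to 177, and Spp1 was called lower there by 1.41 and at Day1 by 0.79 (limma adjusted p 1.46e-08 and 0.000425). Of 8 hepatocyte markers, 5, 4, 2, 2 and 1 were called lower from Day1 to Month10 in Mgmt-/- mice, and Apoa1 was called higher at Month10. The shares of all genes called lower were 8.64%, 7.5%, 6.71%, 3.88% and 2.99%. In WT mice 1, 3 and 2 of the markers were called lower from Day1 to Day5, against 4.19%, 2.91% and 1.39% of all genes. The hepatocyte marker sums in Mgmt-/- mice were lower with NDMA at Day5, at 327042 to 445302 and 229006 to 288258, while Hp and Hpx were higher in the same mice. Cyp2e1, the hepatocyte enzyme that activates NDMA, was called lower at all 5 collections in Mgmt-/- mice, from 3.76 at Day1 to 0.86 at Month10 (limma adjusted p 4.69e-08 and 0.00208), and from Day1 to Day5 in WT mice, by 2.28, 2.07 and 1.42. The part of these cell types in the members' values was not tested.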

How the data were processed

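Per the labels and methods, STAR placed reads on GRCm38/mm10, ESAT gave a count for every gene, and the authors scaled each genotype apart by DESeq2's median of ratios. The versions and the annotation are not given in the sources used here. The deposited values are such a signal, a read count divided by 1 size factor per library. Whole reads were recovered, within 0.01, in 209 of 213 libraries, and the other 4 stayed out of count tests. Of 214 labelled libraries, 1 was not analysed here for want of a column.

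NDMA effects and saline ages were tested with limma 3.58.1 (trend, robust) on log2(value + 1) for genes whose mean reached 5, with sex and batch as covariates and Benjamini-Hochberg adjustment over all genes. For the interaction of genotype and treatment, edgeR 4.0.16 (quasi-likelihood test, TMM scaling) was run on recovered reads, with calls at an adjusted p under 0.05. R was 4.3.3, DESeq2 1.42.0 and Python 3.11.15. Likeness to Lcn2 or Saa1 was Pearson's r among genes whose mean reached 20. All 10 members are named, and from each other list called genes, mostly those with the largest differences. Other genes, such as Alb at Mgmt-/- Day1 and those named to spell out short counts, were picked once their values were known. The members and lists were chosen with earlier results of these data known. The p-values set each difference against the spread between these mice, with any littermates counted as independent. Whole litters got the same treatment, so an effect of litter is not separated from one of NDMA, and the p-values can be too small. Alternatives were other pseudocounts, filters, scalings, tools, covariates, batches and left-out libraries. On simulated data only the limma and edgeR tests of NDMA against saline were tried, for WT Day1 and Mgmt-/- Day5. The interaction, the saline ages, DESeq2 and the likeness were not tried so.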

Additional observations from a re-analysis of the deposited data

Results flagged for a closer look

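The interaction of genotype and treatment was called by edgeR for Lcn2 at Day2 (2.24), Day5 (2.82) and Week10 (4.56), for Orm2 at Day5 (3.83) and Week10 (3.53), and for Hpx at Day2 (0.96) and Day5 (0.83), each with the larger log2 response in Mgmt-/- mice. Orm2 was scarce in Mgmt-/- saline mice at Day5, with a mean of 1.82 against 20.1 in NDMA mice, so its Day5 value rests on the NDMA mice.

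Single mice stood apart from their group, with a gap to the next mouse above Dixon's limit, in 40 of 130 combinations of a member and a group of 4 to 10 mice. Chance gives about 1 in 20 for normally distributed values, a rate that need not hold here, so the count was not tested against it. In 39 of the 40 the mouse was the highest of its group, and 26 were saline mice. Raw normalised values were used, whose spread grows with the level.

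WT saline replicate D202018 at Week10 stood apart in Lcn2 (318), Saa1 (15284), Saa2 (9510), Hp (40399), Hpx (20044) and Itih4 (1984). WT saline replicate D215004 at Day2 stood apart in Lcn2 (147), Saa1 (618), Saa2 (182), Orm1 (232) and Orm2 (30.9), and was the lowest of its group in Itih4 (688). WT NDMA replicate D215023 at Week10 stood apart in Lcn2 (254), Saa1 (5961), Saa2 (3117), Orm2 (72.9) and Apcs (2195).

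Mgmt-/- saline replicate D209003 at Week10 stood apart in Saa1 (12651) and Saa2 (5741). WT saline replicate D215011 at Day5 did so in Saa1 (2029) and Saa2 (672), Mgmt-/- saline replicate D389048 at Day5 in Lcn2 (82.6) and Hp (33554), and Mgmt-/- NDMA replicate D389077 at Day2 in Orm1 (496) and Orm2 (52.7).

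The other mice stood apart in 1 member each. In Saa1 they were Mgmt-/- NDMA replicate D389054 at Day5 (1127) and Mgmt-/- saline replicate D389012 at Day2 (132), and in Saa2 WT NDMA replicate D202007 at Day2 (407). In Orm1 they were WT NDMA replicate D202012 at Day5 (539) and WT saline replicate D202024 at Month10 (1037), and in Orm2 WT saline replicate D202010 at Day5 (101). In Hp they were WT NDMA replicates D215006 at Day2 (42692.5) and D215014 at Day5 (35949), which held under 300000 reads, and WT saline replicate D202025 at Month10 (10296). In Apcs it was WT saline replicate D202001 at Day2 (3313). In Itih4 they were Mgmt-/- NDMA replicates D389095 at Day2 (3397) and D209007 at Week10 (1085) and Mgmt-/- saline replicate D209001 at Week10 (2370). In Socs3 they were Mgmt-/- saline replicate D389023 at Day2 (7.34) and WT saline replicate D202026 at Month10 (20.5).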

How the results depend on the processing

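Of 372 counts of called members under alternatives other than leaving out 1 library, 334 stayed alike, and the others are listed below. Alike did not mean equal, since a fall from 6 to 4 members at Mgmt-/- Week10, on leaving out 1 library, was counted as alike. Of 1720 values for single members 3 reversed, all in WT Day1 batch 200803Eng alone, namely Saa2 (-0.14), Orm1 (-0.046) and Orm2 (-0.77). The cause was not tested. No paired analysis was possible because replicate names do not pair mice.

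Members called higher at WT Day1 were 6, but 2 in batch 191212Eng and 0 in batch 200803Eng alone. At WT Day2 the 4 higher became 0 in batch 200724Eng, and the 0 lower became 1 in batch 200710Eng and 1 without libraries under 300000 reads. At WT Day5 the 1 higher became 0 in batch 200724Eng, and the 0 lower became 1 in edgeR, DESeq2, batch 200710Eng and without libraries under 300000 reads. At Mgmt-/- Day1 the 5 higher became 8 with the same total and 0 in batch 200803Eng, and the 1 lower became 0 with the same total, edgeR, DESeq2, no covariates and batch 200803Eng. At Mgmt-/- Day5 the 7 higher became 4 with the kidney libraries kept. At Mgmt-/- Week10 the 6 higher became 3 in edgeR, and the 0 lower became 1 in edgeR and DESeq2.

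In WT saline mice, the 0 higher from Day2 to Day5 became 1 in batch 200710Eng. From Day2 to Week10 the 4 higher became 2 in batch 200710Eng and 1 in batch 200724Eng, and the 3 lower became 1 in batch 200710Eng. From Week10 to Month10 the 1 higher became 0 in edgeR, and the 4 lower became 7 in edgeR and 2 in batch 200710Eng. In Mgmt-/- saline mice, the 1 higher from Day1 to Day5 became 0 with the kidney libraries kept and 3 in batch 191212Eng. From Day1 to Week10 the 1 higher became 4 with sex alone, and the 3 lower became 1 with the kidney libraries kept. From Week10 to Month10 the 1 higher became 2 with the same total and 0 with the kidney libraries kept, and the 0 lower became 1 with no fold threshold, edgeR and batch 200803Eng. For the interaction at Day5 the 3 higher became 1 without a batch term.

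Leaving out 1 library in 92 fits, where both groups held 8 mice or fewer, gave 4 to 5 higher and 0 to 1 lower at WT Day2, 1 to 2 higher and 0 to 1 lower at WT Day5, and 4 to 6 higher and 0 to 1 lower at Mgmt-/- Week10. The larger groups were not tested so. Over all genes, calls at WT Day5 moved from 312 to 629 in edgeR, 738 in DESeq2, 150 with no covariates and 0 in batch 200724Eng alone, and from 116 (without replicate D202009) to 794 (without replicate D215014) when 1 library was left out, and at WT Day2 from 534 to 871 without replicate D215006. At WT Day1 they moved from 830 to 522 with a pseudocount of 5, 418 with a mean of at least 20 and 1903 with no fold threshold. For the interaction at Day1 they moved from 1 to 80 in limma, and at Day5 from 218 to 82 with the kidney libraries kept. Socs3 had group medians from 1.03 to 10.9, close to the filter on low values, and was tested in 4 of 10 comparisons.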

Other observations

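The 2 libraries labelled Mgmt-/- saline Day5 with high Kap, replicates D389011 and D389017, held 66.5 and 30.0 normalised reads of Hp and 56.0 and 22.9 of Hpx. Orm1, Orm2 and Saa2 were at 0 in both, and Lcn2 was at 1.41 and 1.09.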
